A study of Mus musculus with 34 samples.

Results

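The *Meis*, *Pbx* and *Pknox* genes encode homeodomain proteins that bind DNA together with Hox proteins, and 8 of them, *Meis1*, *Meis2*, *Meis3*, *Pbx2*, *Pbx3*, *Pbx4*, *Pknox1* and *Pknox2*, were followed by name in the RNA-seq of *Hnrnpk*-deficient limb buds. They are 8 of the 22040 genes in the deposited table. The table holds FPKM, which scales the fragments of a gene by exon length and by sequencing depth. RNA was taken from E11.5 mouse limb buds of 3 WT and 3 CKO biological replicates. The CKO embryos carried *Prrx1-Cre* and *Hnrnpk* fl/fl, in which Cre removes exons 4 to 7 of both floxed alleles, and the WT libraries bear the genotype label *Hnrnpk* WT, with no Cre or floxed allele named. *Prrx1-Cre* acts in limb bud mesenchyme, so blood, vessel and ectoderm cells of a CKO bud were not its target. Its activity in the hindlimb is described as incomplete. Embryos of both sexes were used, and whether forelimb and hindlimb buds were pooled is not given in the sources used here.

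All 8 proteins belong to the TALE class of homeodomain proteins, whose homeodomain has an extended loop. MEIS and PREP proteins, the latter encoded by the *Pknox* genes, bind PBX proteins and favour their stay in the nucleus, and the resulting dimers bind DNA with Hox proteins and sharpen their choice of sites. In the limb bud, *Meis1* and *Meis2* are transcribed in the proximal part next to the body wall, where retinoic acid favours them and from where FGF signals of the apical ridge exclude them, and PBX proteins are needed for the girdles and the proximal limb.

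Promoter windows for 5 of the 8 genes were found in the RefSeq table for GRCm38.p6, each from 250 bases before to 50 bases after the annotated start. The windows of the 3 *Meis* genes are shown because replicate 1 was the highest library of both groups for each of them. *Meis1* lies on the minus strand at chr11:19018920-19019219, *Meis2* on the minus strand at chr2:116064570-116064869 and *Meis3* on the plus strand at chr7:16175145-16175444. Capitals mark matches to 4 motifs searched on both strands. They were TGACAG (the MEIS core), TGATNNAT (a PBX-HOX site), CCCTCCCC (a CT element of the kind bound by hnRNPK) and a direct repeat. The repeat was of GGTCA with 5 bases between the copies. Retinoic acid receptor sites were not searched for.
*Meis1*: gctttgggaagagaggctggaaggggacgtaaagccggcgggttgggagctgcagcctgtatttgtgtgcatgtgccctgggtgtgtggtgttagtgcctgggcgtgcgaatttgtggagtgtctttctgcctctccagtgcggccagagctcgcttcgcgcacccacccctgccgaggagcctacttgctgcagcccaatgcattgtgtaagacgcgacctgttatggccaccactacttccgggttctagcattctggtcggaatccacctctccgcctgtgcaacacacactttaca
*Meis2*: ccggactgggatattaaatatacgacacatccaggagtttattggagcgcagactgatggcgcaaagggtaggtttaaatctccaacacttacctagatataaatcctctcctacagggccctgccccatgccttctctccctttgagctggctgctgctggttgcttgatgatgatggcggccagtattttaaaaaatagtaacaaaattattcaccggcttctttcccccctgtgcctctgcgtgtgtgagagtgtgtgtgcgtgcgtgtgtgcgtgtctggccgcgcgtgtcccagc
*Meis3*: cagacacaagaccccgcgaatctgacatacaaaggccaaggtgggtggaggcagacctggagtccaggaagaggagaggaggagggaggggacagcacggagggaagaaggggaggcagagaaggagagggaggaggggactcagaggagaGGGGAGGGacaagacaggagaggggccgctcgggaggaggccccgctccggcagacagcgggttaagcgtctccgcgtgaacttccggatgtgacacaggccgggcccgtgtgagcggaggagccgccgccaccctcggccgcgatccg
The *Meis1* and *Meis2* windows held none of these letters, and the *Meis3* window held the CT element once, on the opposite strand as GGGGAGGG, at position -99 from the start. Of the other 2 windows, that of *Pbx2* held CCCTCCCC at position -29 and that of *Pbx4* held no match. Of all 32851 promoter windows in the table, 19.2% held TGACAG, 8.85% TGATNNAT, 10.8% CCCTCCCC and 0.0761% the repeat. The GC content was 58.3% in the *Meis1*, 51.0% in the *Meis2* and 66.7% in the *Meis3* window, against a median of 52.7% over all windows.

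*Hnrnpk* itself stood at 185 to 195 FPKM in the WT libraries and 127 to 142 FPKM in the CKO libraries, without overlap, a log2 fold change of -0.50 that did not pass by limma (adjusted *p* = 0.334, and 0.0575 with the replicate number as a block). The gene-level FPKM also covers exons outside the deleted part. The reads on the listed genes, as recovered from the FPKM, summed to 17143034 to 24627737 per library. In CKO replicates 2 and 3 these sums exceeded the library size behind the FPKM, so they are approximate. Globin transcripts made up 13.7% to 20.6% of the summed FPKM in WT and 11.7% to 32.4% in CKO. The first principal component, with 52.6% of the variance, set replicate 1 of both groups apart from the other 4 libraries. On the second, with 26% of the variance, every WT library (-22.3 to -2.74) lay below every CKO library (11.9 to 19.4). With replicates 2 and 3 alone, limma called 15.0% of all tested genes and 0 of the 8 genes, whose median log2 fold change was then -0.16.

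*Pbx2* was by far the most abundant of the 8 genes, at a mean of 56.2 FPKM over the 6 libraries (51.2 to 60.2), above 94.4% of all tested genes. It made up 60.7% to 68.7% of the summed FPKM of the 8 genes in each library. *Pbx3* followed at 7.68 FPKM, *Meis2* at 7.09, *Pknox1* at 5.53 and *Meis1* at 5.12. *Pknox2*, *Pbx4* and *Meis3* were low, at 1.69, 1.24 and 1.21 FPKM. *Pbx2* exceeded *Pbx3*, *Meis1* exceeded *Pknox2* and *Pknox2* exceeded *Pbx4* in all 6 libraries. The other neighbours changed places between libraries: *Pbx3* was above *Meis2* in 4 of 6, *Meis2* above *Pknox1* in 5, *Pknox1* above *Meis1* in 4 and *Pbx4* above *Meis3* in 4, so their order was not settled.

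**Figure D1:**
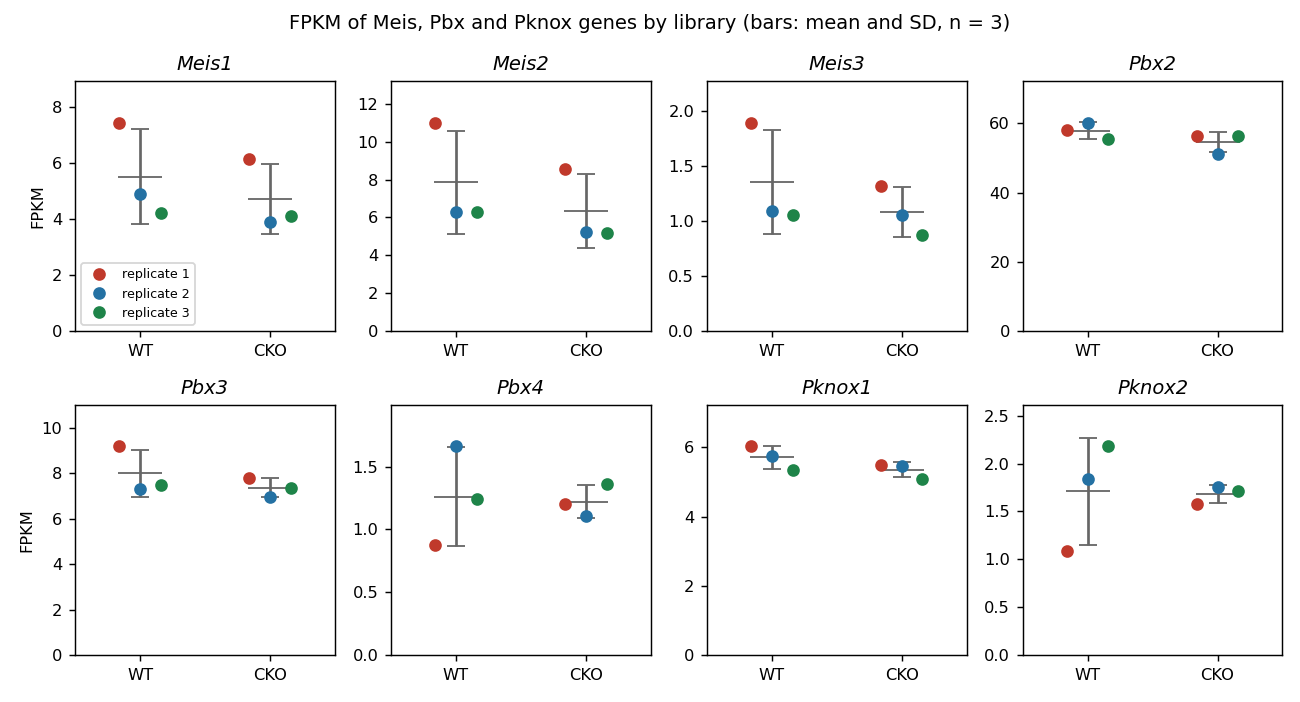
FPKM of the 8 genes in each library, with 1 panel per gene, points for the 3 WT and 3 CKO libraries coloured by replicate number, and bars for the mean and SD (n = 3). The WT and CKO points overlap in all 8 panels, and the points of replicate 1 lie highest in both groups for the 3 *Meis* genes, *Pbx3* and *Pknox1*.

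None of the 8 genes passed the test between CKO and WT, and in each the libraries of both groups overlapped. CKO was compared with WT by limma on log2(FPKM + 0.1), with Benjamini-Hochberg adjustment over the 12305 genes that averaged 0.5 FPKM or more. All 8 genes passed this filter. By limma, 0 of 8 had an adjusted *p* value under 0.05, against 0.0650% of all tested genes, and none fell under 0.05 before adjustment (0 of 8), against 8.31%. None of the 8 had groups without overlap, against 14.5% of all tested genes. Their median log2 fold change was -0.10, with 7 values below 0 and 1 above, against a median of 0.0047 over all tested genes. With 3 libraries per group an exact permutation test cannot give a *p* value under 0.1. In a bulk library, fewer cells of a type and less RNA per cell cannot be told apart.

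**Figure D2:**
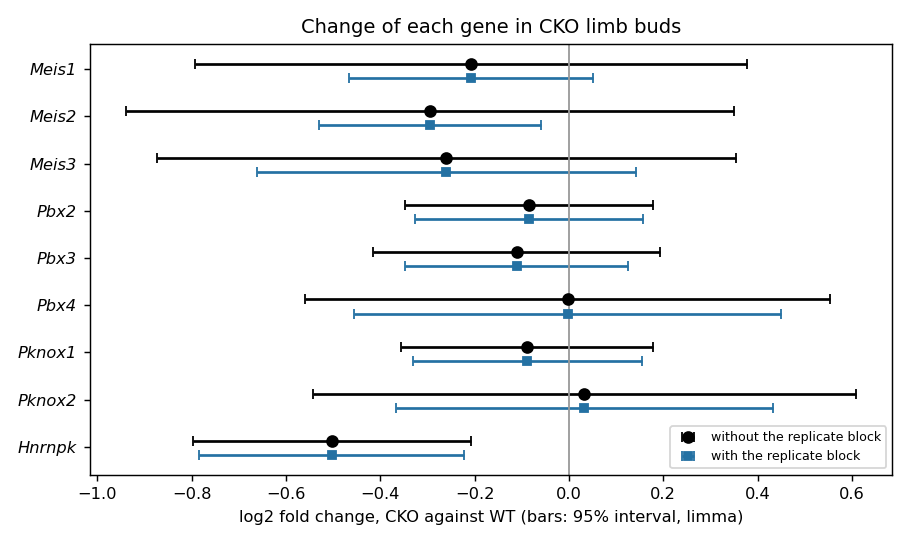
Log2 fold change of CKO against WT on the x axis for each of the 8 genes and for *Hnrnpk*, with 95% intervals from limma without (circles) and with (squares) the replicate number as a block. The intervals without the block include 0 for all 8 genes, and that of *Hnrnpk* runs from -0.80 to -0.21.

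Among the MEIS proteins, MEIS1 (ENSMUSG00000020160, chromosome 11 of GRCm38 from 18879817 to 19018985) is a marker of the proximal limb bud. *Meis1* had 7.44, 4.90 and 4.22 FPKM in WT replicates 1, 2 and 3 and 6.16, 3.90 and 4.12 FPKM in CKO. Its replicate 1 was the highest of either group, and the groups overlapped. The mean was 5.52 ± 1.70 FPKM (SD, n = 3) for WT against 4.73 ± 1.25 FPKM (SD, n = 3) for CKO, which gives a log2 fold change of -0.21 (95% interval -0.79 to 0.38, SE 0.25, adjusted *p* = 0.876 by limma). Without WT replicate 1 the log2 fold change was 0.025 and without CKO replicate 1 it was -0.41, while with replicates 2 and 3 alone it was -0.18 (adjusted *p* = 0.423 by limma). The sign thus turned when WT replicate 1 was removed and CKO replicate 1 kept, and CKO was lower within each number, at ratios of 0.829, 0.796 and 0.977. The value stood on 786 to 1412 reads per library. The *Meis1* exons share 1029 bases with a gene on the same strand and 896 bases with an antisense gene, and whether the counting used the strand is not given in the sources used here.

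*Meis2* (ENSMUSG00000027210, chromosome 2 from 115863064 to 116065839), the close paralog transcribed in an overlapping proximal domain, had 11, 6.28 and 6.27 FPKM in WT and 8.58, 5.26 and 5.16 FPKM in CKO replicates 1, 2 and 3. CKO replicate 1 exceeded WT replicates 2 and 3, so the groups overlapped, although CKO was lower within each replicate number. The mean was 7.85 ± 2.74 FPKM (SD, n = 3) for WT against 6.33 ± 1.95 FPKM (SD, n = 3) for CKO, which gives a log2 fold change of -0.29 (95% interval -0.94 to 0.35, SE 0.28, adjusted *p* = 0.846 by limma). Within the numbers 1, 2 and 3 the CKO to WT ratio was 0.779, 0.838 and 0.822. When limma compared CKO and WT within the replicate numbers, *Meis2* had an interval of -0.53 to -0.06 and an adjusted *p* value of 0.172, and its unadjusted *p* value of 0.0182 was the only one of the 8 under 0.05, against 18.4% of all tested genes. Without WT replicate 1 the log2 fold change was -0.027 and with replicates 2 and 3 alone it was -0.26 (limma adjusted *p* = 0.180). The value stood on 1213 to 2391 reads.

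*Meis3* (ENSMUSG00000041420, chromosome 7 from 16175090 to 16186504), a further MEIS gene, had 1.89, 1.09 and 1.05 FPKM in WT and 1.32, 1.05 and 0.872 FPKM in CKO replicates 1, 2 and 3. The groups overlapped, with the highest value in WT replicate 1 and the lowest in CKO replicate 3. The mean was 1.35 ± 0.471 FPKM (SD, n = 3) for WT against 1.08 ± 0.227 FPKM (SD, n = 3) for CKO. Its log2 fold change was -0.26 (95% interval -0.87 to 0.35, SE 0.26, adjusted *p* = 0.856 by limma), and CKO was lower within each number. It was -0.0062 without WT replicate 1 and -0.15 with replicates 2 and 3 alone. The value stood on 64 to 108 reads per library, the fewest of the *Meis* genes.

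Summed over the 3 *Meis* genes, the FPKM was 20.3, 12.3 and 11.5 in WT and 16.1, 10.2 and 10.2 in CKO replicates 1, 2 and 3. The sum was therefore lower in CKO within each number, at ratios of 0.790, 0.832 and 0.879, while the 2 groups overlapped. Of the 8 genes, 5 (*Meis1*, *Meis2*, *Meis3*, *Pbx3* and *Pknox1*) were lower in CKO within each of the 3 numbers, against 21.3% of all tested genes. The numbers of the labels were taken to pair the libraries from their correlation, as no source says what a shared number stands for. That correlation does not settle how replicates 2 and 3 pair. With numbers 2 and 3 exchanged in CKO, *Pbx3* and *Pknox1* would not be lower in each pair. *Pbx3* had 7.36 FPKM in CKO replicate 3 and 7.30 in WT replicate 2, and *Pknox1* 5.47 in CKO replicate 2 and 5.34 in WT replicate 3. *Meis2* stood at 1.25 to 1.49 times the FPKM of *Meis1* in the 6 libraries, and *Meis3* at 0.212 to 0.270 times, with overlapping WT and CKO ranges for both ratios.

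Among the PBX proteins, PBX2 (*Pbx2*, ENSMUSG00000034673, chromosome 17 from 34591266 to 34597400) is broadly expressed in embryos. *Pbx2* had 58.1, 60.2 and 55.4 FPKM in WT and 56.3, 51.2 and 56.4 FPKM in CKO replicates 1, 2 and 3. Only CKO replicate 2 lay below all WT libraries. The mean was 57.9 ± 2.40 FPKM (SD, n = 3) for WT against 54.6 ± 2.97 FPKM (SD, n = 3) for CKO, which gives a log2 fold change of -0.08 (SE 0.11, adjusted *p* = 0.889 by limma). Its 95% interval of -0.35 to 0.18, a CKO level of 0.786 to 1.13 times the WT level, was the narrowest of the 8, and it stood on 3566 to 5242 reads. The *Pbx2* exons share 227 bases with *Gpsm3* on the same strand.

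*Pbx3* (ENSMUSG00000038718, chromosome 2 from 34171457 to 34373142) had 9.19, 7.30 and 7.51 FPKM in WT and 7.79, 6.96 and 7.36 FPKM in CKO replicates 1, 2 and 3. Replicate 1 was again the highest of each group, and CKO replicates 1 and 3 lay within the WT range. The mean was 8.0 ± 1.04 FPKM (SD, n = 3) for WT against 7.37 ± 0.414 FPKM (SD, n = 3) for CKO. Its log2 fold change was -0.11 (95% interval -0.42 to 0.19, SE 0.13, adjusted *p* = 0.874 by limma), and CKO was lower within each number. It was -0.0084 without WT replicate 1 and -0.05 with replicates 2 and 3 alone.

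*Pbx4* (ENSMUSG00000031860, chromosome 8 from 69832491 to 69872292), which in adult mice is known mainly from the testis, had 0.876, 1.66 and 1.24 FPKM in WT and 1.20, 1.11 and 1.36 FPKM in CKO replicates 1, 2 and 3. All 3 CKO values lay inside the WT range, and the libraries held 35 to 88 reads of the gene. The log2 fold change was -0.0028 (95% interval -0.56 to 0.55, SE 0.24, adjusted *p* = 0.997 by limma). Its sign turned under median-ratio scaling, quantile normalization and the removal of any of 4 libraries, as given in the closing section.

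The PREP proteins compete with MEIS proteins for PBX partners. *Pknox1* (ENSMUSG00000006705, chromosome 17 from 31564734 to 31607693), which encodes PREP1 and is transcribed in most tissues, had 6.03, 5.75 and 5.34 FPKM in WT and 5.49, 5.47 and 5.10 FPKM in CKO replicates 1, 2 and 3. The CKO values sat at the lower end of the WT range, with 2 of 3 above the lowest WT library. The mean was 5.71 ± 0.345 FPKM (SD, n = 3) for WT against 5.36 ± 0.218 FPKM (SD, n = 3) for CKO, which gives a log2 fold change of -0.09 (95% interval -0.36 to 0.18, SE 0.11, adjusted *p* = 0.884 by limma). Its exons share 155 bases with an antisense gene.

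*Pknox2* (ENSMUSG00000035934, chromosome 9 from 36890982 to 37147407), which encodes PREP2, had 1.09, 1.84 and 2.18 FPKM in WT and 1.58, 1.76 and 1.71 FPKM in CKO replicates 1, 2 and 3. WT replicate 1 was the lowest of the 6 libraries, and all CKO values lay inside the WT range. The log2 fold change was 0.03 (95% interval -0.54 to 0.61, SE 0.25, adjusted *p* = 0.983 by limma), and with replicates 2 and 3 alone it was -0.20 (limma adjusted *p* = 0.469). *Pknox1* stood at 2.45 to 5.53 times the FPKM of *Pknox2*. The sum of both PREP genes was 7.41 ± 0.255 FPKM for WT against 7.04 ± 0.208 FPKM for CKO (SD, n = 3 each), while that of *Pbx2*, *Pbx3* and *Pbx4* was 67.1 ± 2.64 and 63.2 ± 3.43.

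The *Meis* genes varied between libraries of the same group. In WT, replicate 1 stood at 1.63 (*Meis1*), 1.76 (*Meis2*) and 1.76 (*Meis3*) times the mean of replicates 2 and 3, and in CKO at 1.54, 1.65 and 1.37 times. For *Pbx2*, by contrast, these ratios were 1.0 in WT and 1.05 in CKO, and for *Pknox2* they were 0.541 and 0.909. Replicate 1 was the highest of its group in both WT and CKO for 5 of the 8 genes, against 29.3% of all tested genes, and the lowest in both for 1 (*Pknox2*), against 30.9%. An *F* test of the replicate number in limma, chosen after the data were seen, passed an adjusted *p* value of 0.05 for *Meis1* (0.0105) and *Meis2* (0.00317), which is 2 of 8 genes against 19.0% of all tested genes. For *Meis3* the adjusted *p* value of the same test was 0.102. Globin and ectoderm transcripts moved the other way between these libraries. The summed FPKM of the 6 ectoderm markers was 34.5 and 39.1 in replicate 1 of WT and CKO and 58.5 to 70.5 in the other 4 libraries, and 9 of the 10 erythroid markers were lowest in replicate 1 of both groups. The part of these cells in the levels of the *Meis* genes was not tested.

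The genes whose 6 values were most like those of *Meis1* and *Meis2* were sought among 7425 genes with a mean of at least 5 FPKM, by the root mean square difference of log2(FPKM + 0.1) after centring each gene on its mean. *Dixdc1* (0.0705) and *Rbpms* (0.0739) were nearest to *Meis1*, and *Meis2* ranked 4 at 0.0941. *Syne2* (0.0717) and the Notch-responsive repressor gene *Hes1* (0.0817) were nearest to *Meis2*, with *Meis1* at rank 3. *Pbx3* ranked 964 from *Meis1* and 1057 from *Meis2*, and *Pbx2* 2407 and 2615. *Hes1*, for example, had 56.5, 29.6 and 27.5 FPKM in WT and 43.5, 25.4 and 26.3 FPKM in CKO replicates 1, 2 and 3. These profiles share the libraries and rest on 6 points, so the ranks describe these libraries alone.

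**Figure D3:**
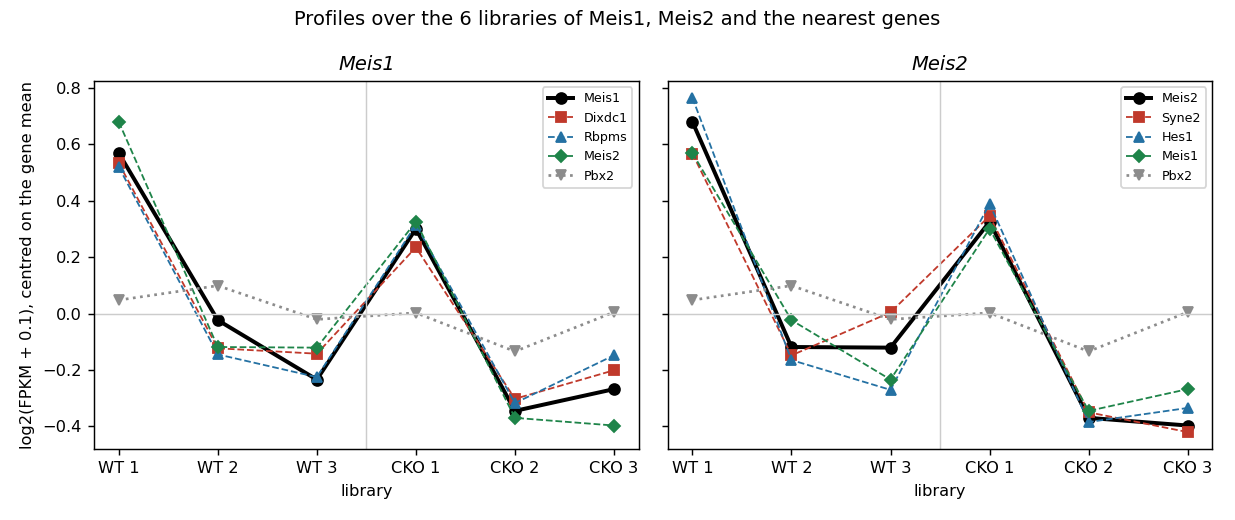
Profiles of *Meis1* (left) and *Meis2* (right), the 2 genes nearest to each, the other of the pair and *Pbx2* over the 6 libraries on the x axis, as log2(FPKM + 0.1) centred on each gene's mean on the y axis, with lines joining the points of 1 gene. *Meis1* and *Meis2* peak in replicate 1 of both groups, whereas *Pbx2* stays near 0. The nearest genes peak there too, as they were picked for likeness over these same values.

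Genes that work with these cofactors were taken from lists chosen with earlier results of these data known, and are described by counts and medians. Of the other 9 TALE genes listed, 7 were tested, 3 were lower and 4 higher in CKO, with a median log2 fold change of 0.03. By limma, 0 of the 7 passed an adjusted *p* value of 0.05, and 0 an unadjusted one, against 0.0650% and 8.31% of all tested genes. *Irx3*, an Iroquois gene of the proximal and anterior limb bud, had 20.9, 13.9 and 12.5 FPKM in WT and 15.6, 7.79 and 9.46 FPKM in CKO, a log2 fold change of -0.55 (adjusted *p* = 0.680 by limma, against 0.0266 with the replicate block, which called 2.81% of all tested genes). *Irx4* had the lowest log2 fold change of this list (-0.56) and *Mkx* the highest (0.19), neither past the threshold in either fit. *Pbxip1*, which encodes a PBX-interacting protein that holds PBX back from DNA, had a mean of 5.89 ± 0.50 FPKM for WT against 4.07 ± 0.737 FPKM for CKO (SD, n = 3 each), with every CKO library below every WT library. The log2 fold change of *Pbxip1* was -0.53 (SE 0.16), with an adjusted *p* of 0.409 by limma and of 0.0642 within the replicate numbers. With replicates 2 and 3 alone *Pbxip1* passed, at -0.74 (adjusted *p* = 2.1e-04 by limma), in a fit that called 15.0% of all tested genes.

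Of 9 posterior *Hox* genes of the *HoxA* and *HoxD* clusters, the DNA-binding partners, 7 were lower and 2 higher in CKO, with a median log2 fold change of -0.24. By limma, none passed the adjusted threshold, and 2 of the 9 fell under 0.05 before adjustment. The fit with the replicate block called 2 of the 9 after adjustment, *Hoxa9* (0.00942) and *Hoxd9* (0.0278). Among all tested genes, limma called 0.0650% after adjustment and 8.31% before it, and the fit with the replicate block called 2.81%. *Hoxa9* had 26.8, 23.2 and 23.4 FPKM in WT and 19.8, 12.6 and 14.8 FPKM in CKO replicates 1, 2 and 3, without overlap. Its log2 fold change of -0.65 was the lowest of the list (adjusted *p* = 0.358 by limma). *Hoxd9* had 30.5, 24.5 and 21.3 FPKM in WT and 22.2, 13.5 and 16.7 FPKM in CKO replicates 1, 2 and 3, so its groups overlapped. *Hoxa13*, the most distal *HoxA* gene, had the highest value of the list at a log2 fold change of 0.38 (limma adjusted *p* = 0.642).

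Of 12 retinoic acid genes, 11 were tested, 10 were lower and 1 higher in CKO, with a median log2 fold change of -0.24. None passed the adjusted threshold and 1 had an unadjusted *p* value under 0.05 by limma, against 8.31% of all tested genes. With the replicate block 1 passed the adjusted threshold, against 2.81%. That gene, *Aldh1a2*, encodes the enzyme that makes retinoic acid in the embryonic trunk and had 4.93, 11.7 and 11.3 FPKM in WT and 2.73, 7.17 and 7.30 FPKM in CKO, a log2 fold change of -0.72 (adjusted *p* = 0.739 by limma, and 0.00497 with the block). Replicate 1 was thus its lowest library in both groups, at 0.428 and 0.378 times the mean of replicates 2 and 3, where the *Meis* genes were highest. *Dhrs3*, which reduces retinaldehyde, had the highest value of the list at 0.11 (limma adjusted *p* = 0.886).

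Of 9 proximal and girdle genes, 8 were tested, 7 were lower and 1 higher in CKO, with a median log2 fold change of -0.31. None passed the adjusted threshold and 1 had an unadjusted *p* value under 0.05 by limma, against 8.31% of all tested genes. The fit with the replicate block called 2.81% of all tested genes. With the replicate block 2 passed, *Pax1* (0.0414), a gene of the shoulder girdle and sclerotome, and *Alx4* (0.0266), a gene of the anterior mesenchyme. *Pax1* had 3.75, 4.29 and 4.07 FPKM in WT and 3.26, 1.55 and 2.26 FPKM in CKO replicates 1, 2 and 3, without overlap. With replicates 2 and 3 alone, a fit that called 15.0% of all tested genes, *Pax1* was at -1.12 (adjusted *p* = 9.3e-06 by limma). The median of the list was then -0.45. *Shox2*, needed for the proximal limb skeleton, had the highest value of the list, a log2 fold change of 0.03 (limma adjusted *p* = 0.973). Between the libraries numbered 1, 2 and 3, the median of this list was -0.02, -0.58 and -0.33, against -0.36, -0.25 and -0.25 for the 3 *Meis* genes.

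Of the 12 distal and FGF-responsive genes, 4 were lower and 8 higher in CKO, and the median log2 fold change was 0.09. None passed the adjusted threshold and 2 had an unadjusted *p* value under 0.05 by limma, against 8.31% of all tested genes. With the replicate block, which called 2.81% of all tested genes, 1 passed, *Spry4* (0.0167), an FGF-induced inhibitor of FGF signalling. *Spry4* had 9.80, 6.18 and 6.91 FPKM in WT and 13.6, 9.05 and 11.1 FPKM in CKO replicates 1, 2 and 3. Its log2 fold change was 0.56 (limma adjusted *p* = 0.552). *Lhx9* had the lowest value of the list (-0.19). With replicates 2 and 3 alone the median was 0.18 for this list, -0.22 for the retinoic acid genes, -0.35 for the *Hox* genes and -0.09 for the other TALE genes, whose sign thus turned. Replicate 1 was the highest library of both groups for 11 of these 12 genes, against 29.3% of all tested genes. The same held for the 3 *Meis* genes.

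**Figure D4:**
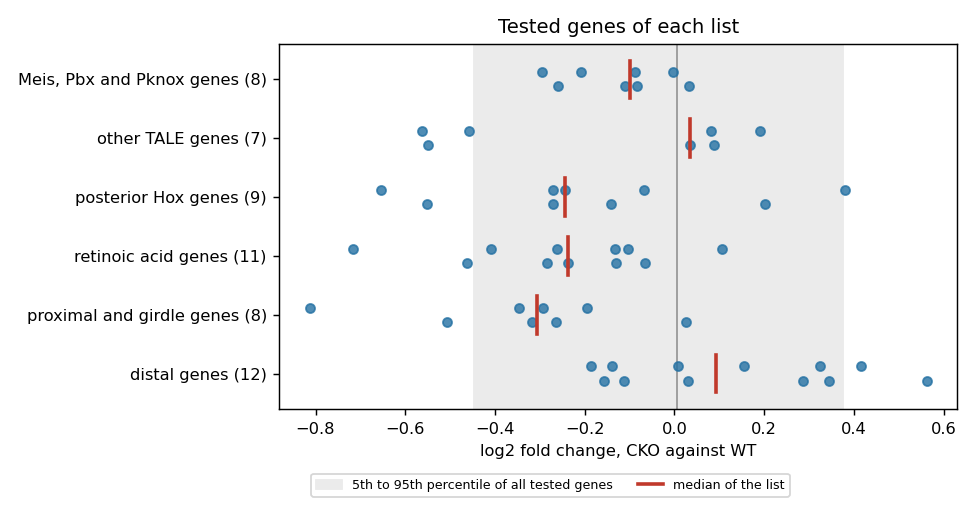
Log2 fold change of CKO against WT on the x axis for the tested genes of each list, with points for genes, red lines for list medians, the grey line for the median of all tested genes and the grey band from their 5th (-0.45) to 95th (0.38) percentile. All 8 *Meis*, *Pbx* and *Pknox* genes lie inside the band.

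Markers of limb mesenchyme were present at 336 to 351 summed FPKM in WT and 279 to 324 in CKO, with 7 of 7 detected. Every CKO sum was thus below every WT sum, and all 7 markers had a log2 fold change below 0 (median -0.17), with 0 past the adjusted threshold of limma. The part of this in the levels of the *Meis* genes was not tested. The 7 markers include *Lmx1b*, and also *Hoxa11* and *Hoxd11*, which were counted among the *Hox* genes above. By qPCR, the paper reports *Lmx1b* and *Hoxd11* as lower in CKO limb buds. Markers of other cells were summed over each list. Neural crest markers ran from 5.74 to 9.22 FPKM in WT and 6.72 to 7.99 in CKO, and muscle precursor markers from 13.9 to 29.0 and 25.1 to 32.2. Somite and trunk markers, of tissue that also transcribes *Meis* genes, ran from 29.0 to 48.4 and 31.0 to 45.8, endothelial markers from 21.0 to 30.3 and 15.0 to 24.1, and macrophage markers from 10.9 to 16.4 and 12.2 to 19.8. None of these lists had a marker at 0 in all libraries, and 0 of their tested genes passed the adjusted threshold of limma or of the fit with the replicate block. The forelimb gene *Tbx5* was at 19.1 to 20.3 FPKM in WT and 7.30 to 15.3 FPKM in CKO, below all WT libraries (adjusted *p* = 0.358 by limma, 0.00734 within the replicate numbers), and at -1.19 on the log2 scale with replicates 2 and 3 alone (adjusted *p* = 9.2e-08 by limma). The latter 2 fits called 2.81% and 15.0% of all tested genes. The 3 hindlimb markers summed to 67.8 to 73.1 in WT and 73.8 to 83.0 in CKO. Of these, *Pitx1* lay above all WT libraries in CKO (log2 fold change 0.25, adjusted *p* = 0.663 by limma), while *Tbx4* (-0.0033) and *Isl1* (0.30) overlapped between the groups. A shift in the share of forelimb and hindlimb tissue and a change within the tissue cannot be told apart in these libraries.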

How the data were processed

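FPKM were computed by the authors from stranded libraries of poly(A) RNA, with 1 column for each of the 6 libraries. Per the labels, the submitters' processing notes name mm10, cutadapt 2.5, HISAT2 2.1.0 and featureCounts 1.6.3, and the annotation and strand setting are not given in the sources used here. Other assays of the series were not used here. The deposited FPKM were compared with limma 3.58.1 in R 4.3.3 (eBayes with a trend) on log2(FPKM + 0.1), a scale that understates changes of low genes. Genes that averaged 0.5 FPKM or more were tested. GENCODE vM21 (GRCm38) held 99.9% of the identifiers, and its merged exon lengths gave whole reads within 0.1 reads in all libraries for 92.7% of matched genes, and depth was read from these. *Pknox1* did not give whole reads. Library sizes behind the FPKM were 18026059 to 23935512. The recovered reads summed to more than this size in CKO replicate 2 (21193385 against 19146569) and CKO replicate 3 (24627737 against 23848042). In the other libraries they summed to less.

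The genes and lists were chosen with earlier results of these data known. The list genes named are those past an adjusted *p* value of 0.05 with or without the replicate block and each list's highest and lowest, and for *Meis1* and *Meis2* the 3 genes of nearest profile, of which 1 is not reported here. Markers were written from general knowledge. Deviations from the group mean correlated at 0.636, 0.443 and 0.266 between WT and CKO libraries of the same number over the tested genes, each above 0.1, and same-numbered libraries were therefore treated as pairs. Between numbers 2 and 3 the correlations were 0.495 and 0.307, above the 0.443 and 0.266 within these numbers. The pairing thus rests on replicate 1, and that of numbers 2 and 3 is not settled. Where the labels do not say what a replicate was, *p* values measure the spread between these libraries. On simulated data with 12305 genes, limma recovered 60.2% of genes changed by 1 on the log2 scale and 95.7% of those changed by 2. With the block, limma recovered 96.3% and 100%, with 20 false calls. This gain rests on the replicate differences put into the simulated data, so no conclusion on the pairing was drawn from it. Smaller changes were not simulated. Recovery at the size seen for *Meis2* (-0.29), the largest among the genes followed by name, was therefore not tested.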

Additional observations from a re-analysis of the deposited data

How the results depend on the processing

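No gene of the 8 passed an adjusted *p* value of 0.05 by limma under any of the 18 alternatives, whose lowest adjusted *p* value was 0.107, for *Meis2* by voom on the recovered reads with the replicate block, chosen after the data were seen. With the replicate block alone, the log2 fold change of *Meis2* was -0.29 (limma adjusted *p* = 0.172), and no call among the 8 changed. The signs of *Meis2*, *Meis3*, *Pbx2*, *Pbx3* and *Pknox1* held under all 18. After the removal of single libraries, log2 fold changes ran from -0.41 to 0.025 for *Meis1*, -0.53 to -0.027 for *Meis2*, -0.22 to 0.20 for *Pbx4* and -0.24 to 0.23 for *Pknox2*. *Pbx4* was at 0.013 under median-ratio scaling and 0.054 under quantile normalization. *Pknox2* was at -0.20 with replicates 2 and 3 alone, with or without the replicate block, and at -0.015 by voom with the block. *Hnrnpk*, at an adjusted *p* of 0.334 without and 0.0575 with the replicate block, passed with replicates 2 and 3 alone (-0.45, adjusted *p* = 0.0377, and 0.00256 with the block) and by voom with the block (-0.51). Over all genes, the 8 calls became 14 under quantile normalization, 346 with the replicate block, 1851 with replicates 2 and 3 alone (2280 with the block), 652 by voom with the block and 1 to 23 after the removal of single libraries. The causes were not tested. Depth limits *Pbx4* and *Meis3*, which stood on as few as 35 and 64 reads.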
